A study of Mus musculus with 12 samples.

Results

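The genes described are 47 regulators of chromatin and DNA methylation, chosen by symbol from a fixed list of subunits and enzymes and measured in sorted mouse bone marrow cells. All 47 were found among the 39017 genes of the count table, and all 47 held enough counts to be tested. They comprise 11 subunits of SWI/SNF, 5 of Polycomb repressive complex 2 (PRC2), 8 of Polycomb repressive complex 1 (PRC1), 2 ASXL genes, 6 enzymes of DNA methylation, 8 of histone methylation, 2 histone acetyltransferases and 5 members of histone deacetylase complexes. RNA was sequenced from Lin- Sca1+ cKit+ (LSK) cells, the bone marrow fraction in which haematopoietic stem cells and early progenitors are found. The 12 libraries form 4 labelled groups of 3, from mice of mixed C57BL/6J; Sv/129 background, and every library carries the same batch number, 1. Libraries labelled NOTCHWT_TCFWT are described as from wild type mice that had a control injection of poly(I:C) at 2 ug/g. Those labelled NICD_TCFWT are described as from R26 N1IC lox/+ Mx1Cre mice. Such mice carry an inducible Notch1 intracellular domain (N1IC), the active form of the receptor, at the R26 locus. The label NICD_TCFKO stands for R26 N1IC lox/+ Tcf7 lox/lox Mx1Cre mice, which carry lox-flanked Tcf7 in addition, and NOTCHWT_TCFKO for Tcf7 lox/lox Mx1Cre mice without N1IC. Mx1Cre, driven by an interferon-responsive promoter that is active in more cells than LSK cells, was induced with poly(I:C) at 2 ug/g in these 3 groups. Cells of both NICD groups were sorted in addition as CD45.2+ eGFP+, so that this gate cannot be told apart from the N1IC label. The labels give no age and do not say whether replicates were separate mice, so each p-value reflects the spread between these samples alone, which may be technical.

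SWI/SNF complexes use the energy of ATP to move or evict nucleosomes and so open chromatin. PRC2 writes a repressive methyl mark on histone H3, PRC1 binds that mark and compacts chromatin, and DNA methyltransferases and TET enzymes add and oxidise methyl groups on cytosine. Several of these genes, among them Bmi1, Dnmt3a, Tet2 and Asxl1, are known for holding the balance between self-renewal and differentiation in haematopoietic stem cells, and some are mutated in leukaemia.

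Total counts ranged from 30453271 to 43790674 per library. Levels are given as CPM, the usual count scaled to library size, with library sizes adjusted by TMM, and levels of different genes are compared only as CPM per kb of exon. The genes that the labels name went against them in part. Notch1 stood at 541, 622 and 549 CPM in NOTCHWT_TCFWT libraries and at 591, 887 and 846 CPM in NICD_TCFKO libraries, but at 195, 188 and 157 CPM in NICD_TCFWT and 145, 104 and 197 CPM in NOTCHWT_TCFKO. Tcf7 was highest in the libraries labelled as deleted for it together with N1IC, at 297, 896 and 615 CPM in NICD_TCFKO, against 0.267 to 19.6 CPM in all others. Dtx1 and Hes1, targets of Notch signalling, had means of 85.4 and 177 CPM in NOTCHWT_TCFWT and 121 and 158 CPM in NICD_TCFKO. Their means were 0.124 and 4.54 CPM in NICD_TCFWT and 0.208 and 7.67 CPM in NOTCHWT_TCFKO. Groups are therefore called by their labels, and every direction is one between libraries so labelled. The sample titles also carry second names, RAD for NOTCHWT_TCFWT, RNIC-CTRL for NICD_TCFWT, RNIC-Tg for NICD_TCFKO and Tcf7-Tg for NOTCHWT_TCFKO. Whether these names or the labels describe the mice was not tested. Counts are per gene, and the exons that the lox sites flank are not given, so remaining transcripts would still be counted in both groups labelled TCFKO. In NOTCHWT_TCFKO Tcf7 stood at 0.819, 2.76 and 0.267 CPM. Its means were 14.8 CPM in NOTCHWT_TCFWT and 5.5 CPM in NICD_TCFWT, below every library of NICD_TCFKO. The cause of the high level in NICD_TCFKO was not tested. The defining markers of the sorted cells were present in all libraries, with Kit from 610 to 978 CPM, Ly6a, which encodes Sca1, from 33.1 to 148 CPM and Cd34 from 505 to 1280 CPM. They did not move together. Ly6a was lower in NOTCHWT_TCFKO, at 37.5 ± 7.24 CPM, than in NOTCHWT_TCFWT, at 123 ± 23.9 CPM (SD, n = 3, edgeR, adjusted p = 0.00104), whereas Cd34 was higher there, at 1010 ± 201 against 665 ± 141 CPM (SD, n = 3, edgeR, adjusted p = 0.0453).

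Markers of other cells differed between the groups. The summed level of 12 granulocyte and monocyte genes was 66.7 to 125 CPM in NOTCHWT_TCFWT and 357 to 1240 CPM in NICD_TCFKO, against 1710 to 6380 CPM in NICD_TCFWT and 1600 to 9490 CPM in NOTCHWT_TCFKO. The sum of 12 T lineage genes ran the other way, at 261 to 304 CPM in NOTCHWT_TCFWT and 812 to 2330 CPM in NICD_TCFKO, against 68.4 to 108 CPM in NICD_TCFWT, where Cd3g and Ptcra were at 0, and 59.4 to 104 CPM in NOTCHWT_TCFKO, where Ptcra was at 0. In NOTCHWT_TCFWT Cd3g and Ptcra were near 0 as well, with means of 0.0581 and 0.011 CPM. Lck alone stood at 210, 216 and 182 CPM in NOTCHWT_TCFWT, most of its sum. NICD_TCFKO was called higher than NOTCHWT_TCFWT for 10 of the 12 genes and lower for 0, with a median log2 fold change of 6.62. Of all genes tested 4.01% were higher and 2.3% lower in that comparison. Against NOTCHWT_TCFWT, Cd5, Lck and Thy1 were called lower in both NICD_TCFWT and NOTCHWT_TCFKO. Cd4 was called higher in both, and Cd8a was called higher in NOTCHWT_TCFKO. The 10 LSK and stem cell genes summed to 2160 to 2610, 2180 to 2510, 3380 to 3890 and 2650 to 4180 CPM in NOTCHWT_TCFWT, NICD_TCFKO, NICD_TCFWT and NOTCHWT_TCFKO, and 10 genes of resident macrophages stood apart in NOTCHWT_TCFKO, at 431 to 656 CPM against 42.7 to 144 CPM elsewhere. Within the LSK list, Cd34, Mecom, Hlf and Flt3 were called higher in both NICD_TCFWT and NOTCHWT_TCFKO than in NOTCHWT_TCFWT, while Ptprc was called higher in NICD_TCFKO than in either. Library 3 labelled NOTCHWT_TCFKO stood apart from the other libraries of its group, with a granulocyte and monocyte sum of 1600 against 7560 and 9490 CPM and an LSK sum of 4180 against 3190 and 2650 CPM. Other libraries stood apart too: library 2 of that group had an erythroid sum of 1370 against 340 and 143 CPM and S100a8, a granulocyte gene, at 593 against 18.7 and 5.84 CPM. Library 3 labelled NICD_TCFWT had a granulocyte and monocyte sum of 6380 against 1710 and 2840 CPM, and library 1 labelled NICD_TCFKO a T lineage sum of 812 against 2330 and 1670 CPM. In bulk RNA fewer cells of a type and less RNA per cell cannot be told apart, and the part of these cell types in the results that follow was not tested. The 20 proliferation genes summed to 5360 to 6630, 6710 to 7680, 5210 to 6080 and 6040 to 7340 CPM in the same order of groups, and at most 3 of the 20 were called in any pairwise comparison. All 20 had higher fitted values in NICD_TCFKO than in NICD_TCFWT, with a median log2 fold change of 0.30, and for 16 of the 20 the libraries of these groups did not overlap, beside 38% of all genes tested. No library labelled NOTCHWT_TCFWT held Y-linked transcripts over 10 CPM, whereas 2 of NICD_TCFWT, 1 of NICD_TCFKO and 2 of NOTCHWT_TCFKO did.

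**Figure D1:**
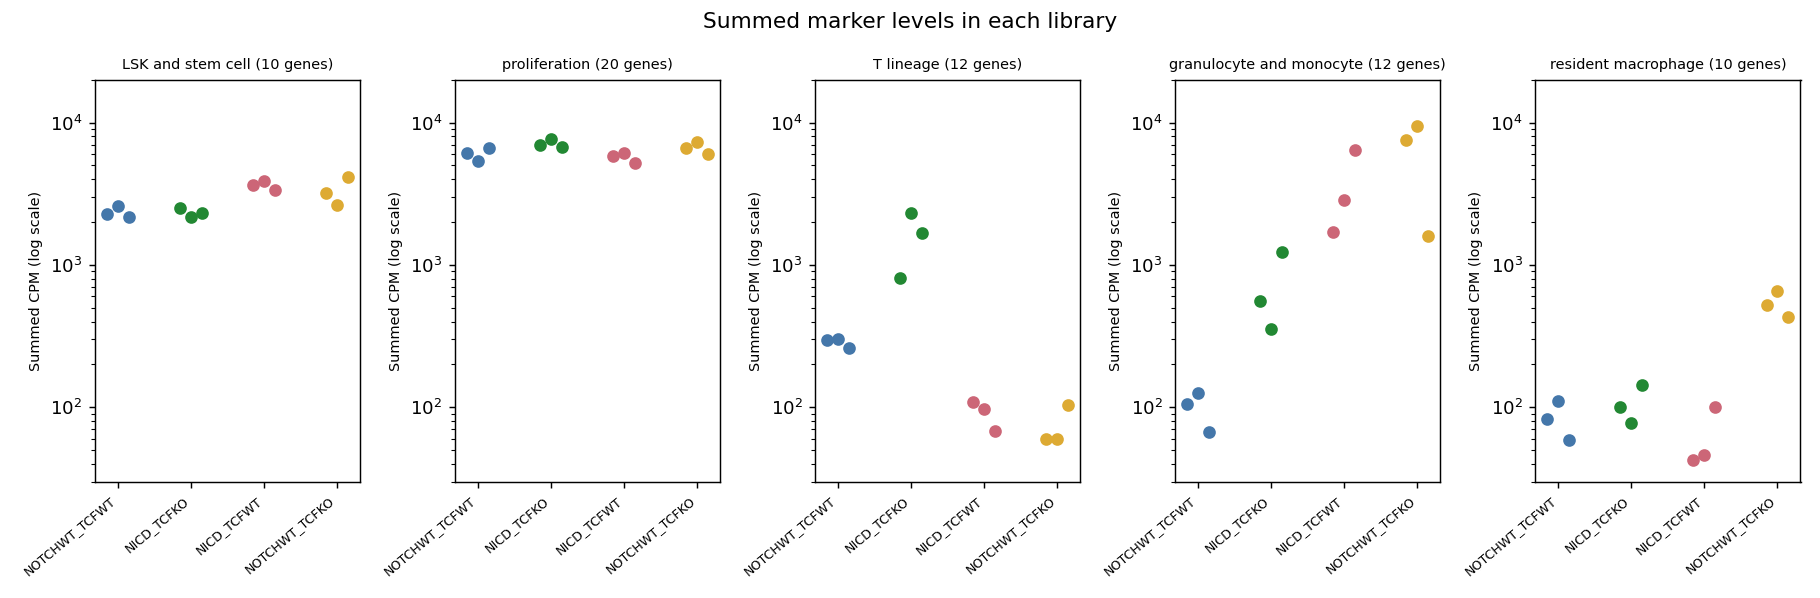
Summed CPM of 5 marker lists in each library, on a log axis, with 1 point per library in the 4 labelled groups. The granulocyte and monocyte sum lies between 1600 and 9490 CPM in NICD_TCFWT and NOTCHWT_TCFKO and between 66.7 and 1240 CPM in the other groups, while the T lineage sum has the opposite order.

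Of the 47 regulators 19 (40.4%) differed among the 4 groups (edgeR's quasi-likelihood F test, with a call made at a p below 0.05 after Benjamini-Hochberg adjustment over the whole table). Of all 16024 genes tested 29.7% did, and of the 9693 genes within the members' range of mean CPM 30.4%. Without library 1 labelled NICD_TCFWT, or library 1 labelled NOTCHWT_TCFKO, 12 members differed, beside 20.6 and 21% of all genes. The differences were small for most members. The ratio of the highest to the lowest group mean ran from 1.02 for Ep300 to 3.19 for Cbx7, with a median of 1.25, and the same median, 1.25, was found for genes of the members' CPM range. Only Cbx2 and Cbx7 reached a ratio of 2.

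**Figure D2:**
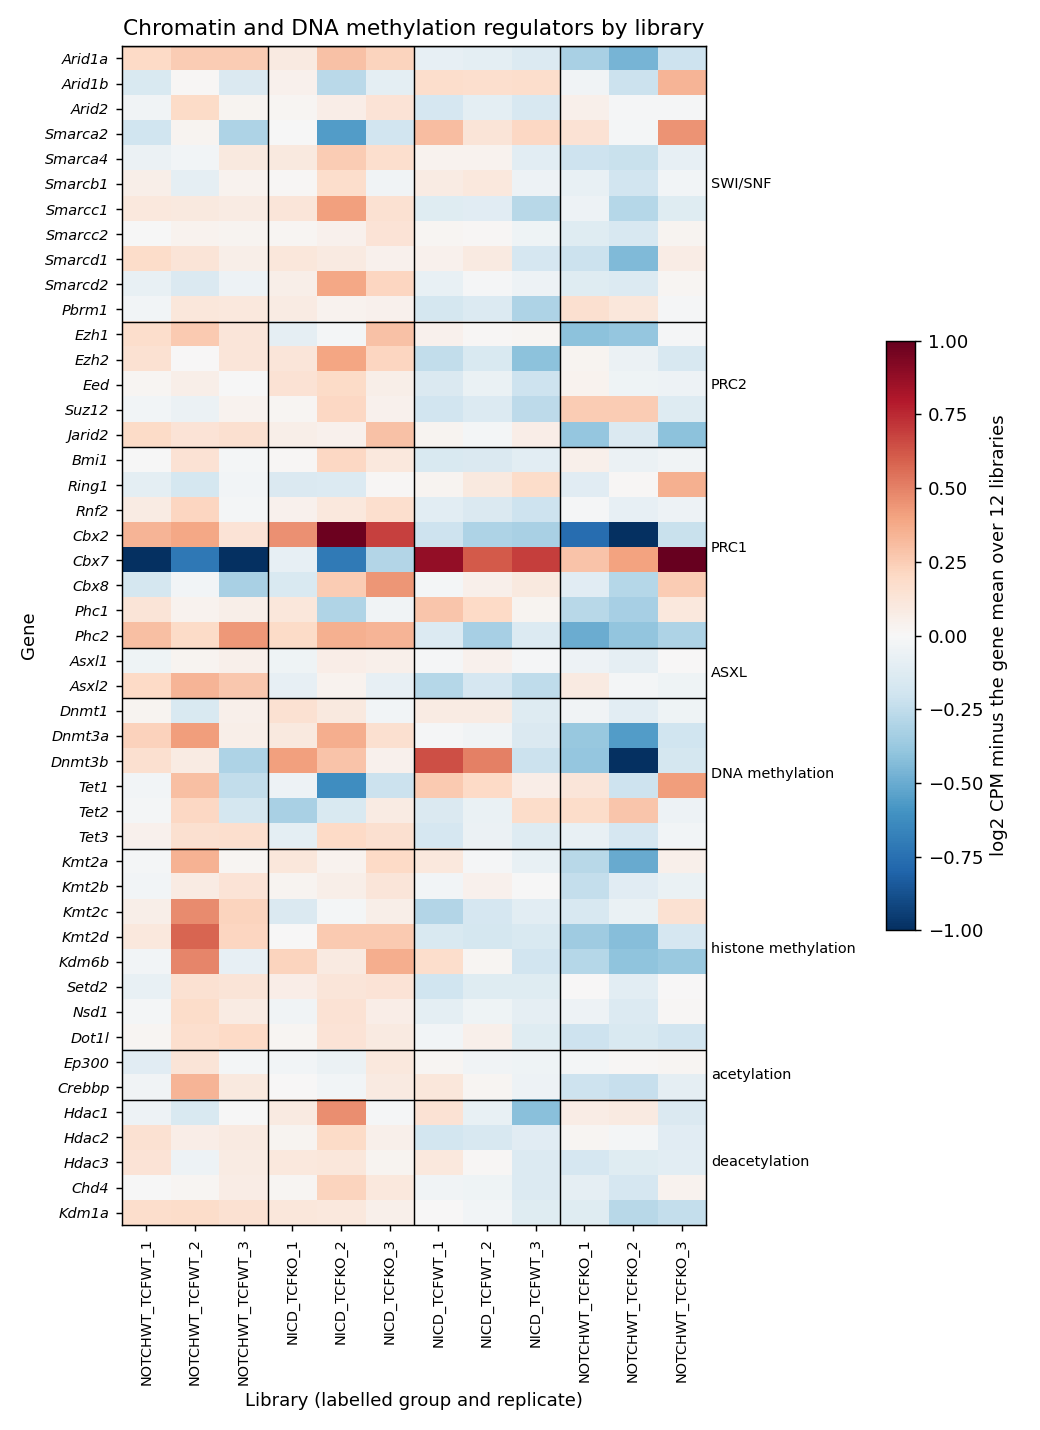
Level of each of the 47 regulators (rows, grouped by complex) in each of the 12 libraries (columns), as log2 CPM minus the mean of that gene over the libraries, with colours limited to 1 on either side of 0. The colours of Cbx7 and Cbx2 run in opposite directions, Cbx7 reaches both ends of the scale, Cbx2 and Dnmt3b reach the lower end in library 2 of NOTCHWT_TCFKO, and most other genes stay pale.

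By the labels, the question of what N1IC does where Tcf7 is intact is asked by NICD_TCFWT against NOTCHWT_TCFWT. In that comparison 11 regulators were lower and 1 higher in NICD_TCFWT, beside 9.75% of all genes tested lower and 10.6% higher (20.4% in all). The lower members were Arid1a, Pbrm1, Ezh2, Rnf2, Phc2, Asxl2, Kmt2c, Kmt2d, Setd2, Hdac2 and Kdm1a, and the higher one was Cbx7. The median log2 fold change of the 47 was -0.14, against -0.03 for genes of their CPM range. The 2 groups differ in sex-linked transcripts as well, and with a covariate for these 6 members were called, 1 of them higher, beside 15.3% of all genes called. Leaving out library 1 labelled NICD_TCFWT left 4 called, beside 12.3% of all genes. Leaving out library 2 or 3 of that group left 7, beside 13 and 13.3%. Leaving out library 2 labelled NOTCHWT_TCFWT left 6, beside 15.5%.

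By the labels, loss of Tcf7 without N1IC is asked by NOTCHWT_TCFKO against NOTCHWT_TCFWT. Here 12 regulators were lower and 1 higher in NOTCHWT_TCFKO, beside 10.5% of all genes lower and 10.8% higher. Arid1a, Ezh1, Jarid2, Cbx2, Phc2, Asxl2, Dnmt3a, Kmt2d, Kdm6b, Dot1l, Crebbp and Kdm1a were lower, and Cbx7 was higher. The median log2 fold change of the members was again -0.14, against -0.02 for genes of their CPM range.

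By the labels, loss of Tcf7 together with N1IC is asked by NICD_TCFKO against NICD_TCFWT. Tcf7 itself went against the labels here, higher in NICD_TCFKO by 6.78 ± 0.71 on the log2 scale (edgeR, adjusted p = 0.000681). In this comparison 11 members were higher and 1 lower in NICD_TCFKO, beside 7.25% of all genes higher and 5.15% lower. The higher ones were Arid1a, Smarcc1, Pbrm1, Ezh2, Eed, Bmi1, Rnf2, Cbx2, Phc2, Setd2 and Hdac2, and Cbx7 was lower. The count of 12 fell to 4 without library 3 labelled NICD_TCFWT, beside 6.45% of all genes. It fell to 5 without library 1 of that group or library 2 labelled NICD_TCFKO, beside 5.65 and 5.57%. It fell to 6 without library 2 labelled NICD_TCFWT or library 3 labelled NICD_TCFKO, beside 5.66 and 6.94%. N1IC where Tcf7 is deleted is asked, again by the labels, by NICD_TCFKO against NOTCHWT_TCFKO. There 13 members were higher and 1 lower, beside 10.3% of all genes higher and 8.06% lower. Arid1a, Smarca4, Smarcc1, Smarcd2, Ezh2, Jarid2, Cbx2, Phc2, Dnmt3a, Kmt2d, Kdm6b, Dot1l and Kdm1a were higher, and Cbx7 was lower. The members' median log2 fold changes were 0.15 and 0.18 in these comparisons, against 0.03 and 0.02 for genes of their CPM range. With only the libraries of NICD_TCFKO and NOTCHWT_TCFKO fitted 6 members were called, all of them higher, beside 8.04% of all genes called. Without library 3 labelled NICD_TCFKO, or library 1 or 2 labelled NOTCHWT_TCFKO, 9 were called, beside 11.4, 9.77 and 11.8% of all genes.

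The remaining pairs differed less. Between NICD_TCFKO and NOTCHWT_TCFWT 2 members passed, Smarcd2 as higher and Asxl2 as lower in NICD_TCFKO, beside 4.01% of all genes higher and 2.3% lower (6.3% in all). Without library 2 or 3 labelled NOTCHWT_TCFWT, or library 3 labelled NICD_TCFKO, 0 passed. Without library 1 labelled NOTCHWT_TCFWT or NOTCHWT_TCFKO, library 1 or 2 labelled NICD_TCFKO or any library labelled NICD_TCFWT, 1 passed. Over these settings 2.23 to 7.78% of all genes passed. Between NOTCHWT_TCFKO and NICD_TCFWT 0 members passed in edgeR, beside 1.34% of all genes higher and 1.54% lower (2.87% in all). In edgeR 15 had an unadjusted p under 0.05. With limma-voom 0 passed, beside 2.96% of all genes, and with DESeq2 6, beside 10.4%. Without the library 3 labelled NOTCHWT_TCFKO that stood apart, 8 members were called in this pair, beside 12.5% of all genes tested. Each of the 4 groups stands in 3 of the 6 pairwise comparisons, so these counts share libraries and do not support each other.

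The interaction of the labels takes the difference between NICD_TCFKO and NICD_TCFWT minus the difference between NOTCHWT_TCFKO and NOTCHWT_TCFWT. A positive value means that libraries carrying both labelled changes or neither were high relative to those carrying 1 of them. The groups with both labelled changes or neither are also those in which Dtx1 and Hes1 were high. It passed for 21 members, 19 positive and 2 negative, beside 13.8% of all genes positive and 13.5% negative. The median interaction was 0.31 on the log2 scale, against 0.05 for genes of the members' CPM range. For 8 members, Arid1a, Smarcc1, Cbx2, Phc2, Dnmt3a, Kmt2d, Hdac2 and Kdm1a, all 6 libraries labelled NOTCHWT_TCFWT or NICD_TCFKO lay above all 6 others. Of all genes tested 5.6% did so, and 5.02% lay below, as Cbx7 did.

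**Figure D3:**
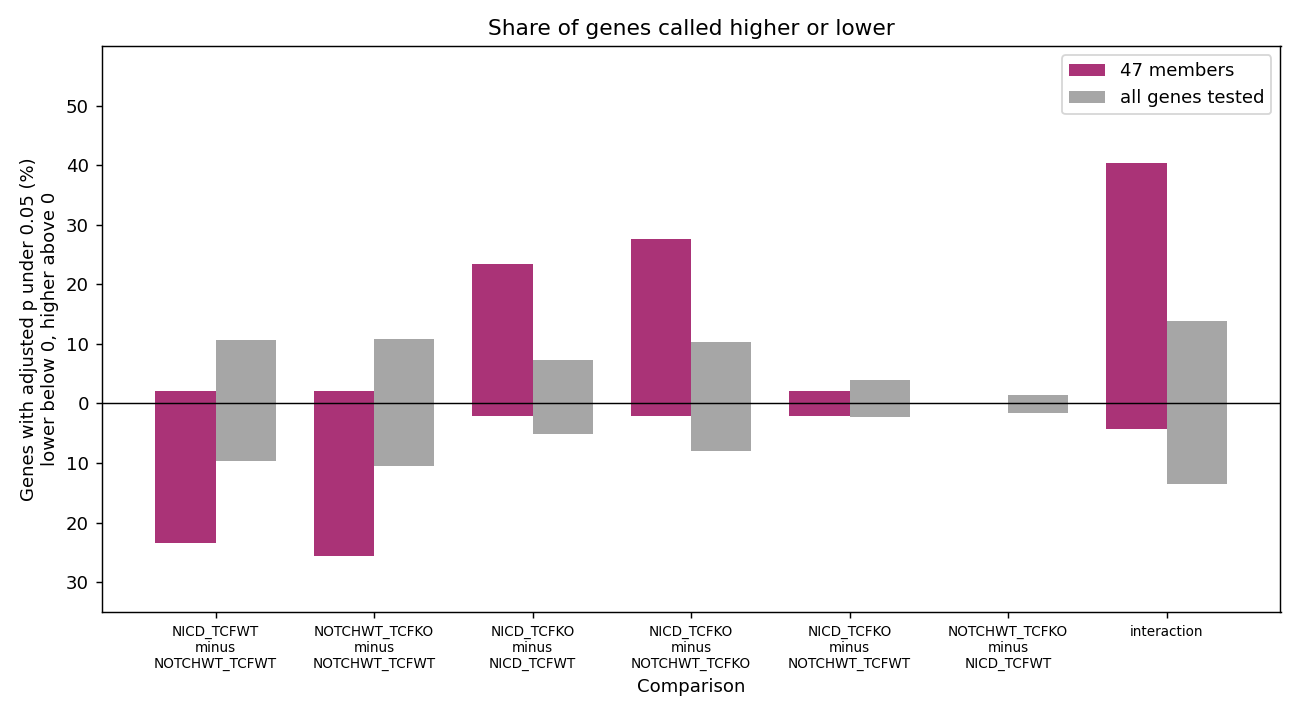
Percent of the 47 regulators (purple) and of all 16024 genes tested (grey) called higher (above 0) or lower (below 0) at an adjusted p under 0.05, in the 6 pairwise comparisons and the interaction. In the first 2 comparisons the purple bars below 0 reach 23.4 and 25.5% against 9.75 and 10.5% in grey, and in the interaction the purple bar above 0 reaches 40.4% against 13.8%.

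In the plot of the interaction of each gene, every family but the acetyltransferases held a positive value that passed, and both acetyltransferases had a positive value that did not pass.

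**Figure D4:**
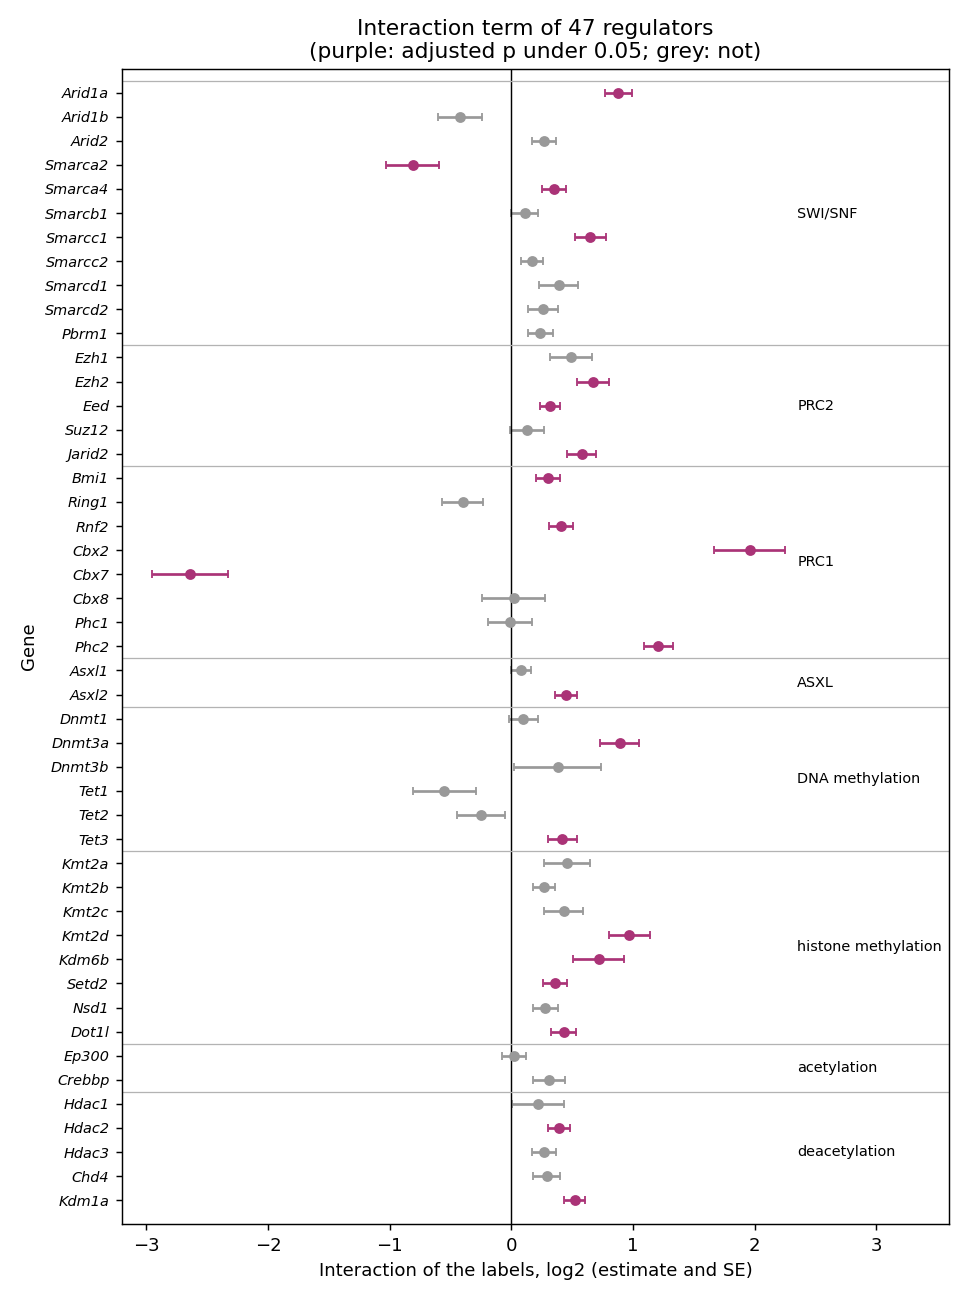
Interaction of the labels for each of the 47 regulators, on the log2 scale, with its SE, grouped by complex (purple: adjusted p under 0.05, grey: not). Cbx7, at -2.64, and Cbx2, at 1.96, lie farthest from 0, on opposite sides.

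Of the SWI/SNF subunits, 5 of 11 differed among the groups, beside 29.7% of all genes, and the calls of Arid1a and Smarcc1 held in every alternative. Smarcd2 lost its call in 7 of 20 (adjusted p up to 0.0991), among them without library 1 of NOTCHWT_TCFWT or NOTCHWT_TCFKO, 1 or 2 of NICD_TCFWT, or 2 or 3 of NICD_TCFKO. Smarca4 lost it in 6 of 20 (adjusted p up to 0.0700), among them without library 2 or 3 of NICD_TCFKO or 1 or 2 of NOTCHWT_TCFKO, and Pbrm1 in 4 of 20 (adjusted p up to 0.103), without any single library of NICD_TCFWT or library 1 of NOTCHWT_TCFKO. Arid1a (ENSMUSG00000007880, mm10 chromosome 4, 133679008 to 133756769, minus strand), the ARID subunit that defines the BAF form of the complex, stood at 609, 632 and 633 CPM in NOTCHWT_TCFWT and at 564, 650 and 620 CPM in NICD_TCFKO. It stood at 500, 496 and 481 CPM in NICD_TCFWT and at 423, 383 and 458 CPM in NOTCHWT_TCFKO. Every library of the first pair of groups was above every library of the second, and NOTCHWT_TCFKO was lowest throughout. Relative to NOTCHWT_TCFWT, Arid1a fell by 0.34 ± 0.08 on the log2 scale in NICD_TCFWT (edgeR, adjusted p = 0.0103) and by 0.57 ± 0.08 in NOTCHWT_TCFKO (edgeR, adjusted p = 0.000564). It rose by 0.54 ± 0.08 in NICD_TCFKO relative to NOTCHWT_TCFKO (edgeR, adjusted p = 0.00116) and by 0.31 ± 0.08 relative to NICD_TCFWT (edgeR, adjusted p = 0.0243). The last of these calls was lost without any single library of NICD_TCFWT and without library 2 or 3 labelled NICD_TCFKO (adjusted p up to 0.0743 over the alternatives), whereas the other 3 held in all of them.

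Smarcc1 (ENSMUSG00000032481, chromosome 9, 110117708 to 110240178, plus strand), a scaffold subunit, stood at 357, 355 and 350 CPM in NOTCHWT_TCFWT and 361, 439 and 368 CPM in NICD_TCFKO. It was at 304, 306 and 274 CPM in NICD_TCFWT and 320, 272 and 304 CPM in NOTCHWT_TCFKO. The 2 pairs of groups did not overlap, although library 2 labelled NICD_TCFKO was high. NICD_TCFKO was higher by 0.40 ± 0.09 than NICD_TCFWT (edgeR, adjusted p = 0.0162, lost without library 3 of NICD_TCFWT, 0.0579) and by 0.38 ± 0.09 than NOTCHWT_TCFKO (edgeR, adjusted p = 0.0147). The second call was lost without library 2 of NOTCHWT_TCFKO and with only the 2 groups fitted (adjusted p up to 0.0813). The interaction, 0.65 ± 0.13, held in every alternative.

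The ATPases of the complex, of which it holds 1 at a time, did not move together. Smarca4, the ATPase also called BRG1, was at 393, 403 and 438 CPM in NOTCHWT_TCFWT, 439, 490 and 461 CPM in NICD_TCFKO, 421, 420 and 382 CPM in NICD_TCFWT and 356, 352 and 388 CPM in NOTCHWT_TCFKO. Only NICD_TCFKO and NOTCHWT_TCFKO were told apart, by 0.34 ± 0.07 (edgeR, adjusted p = 0.0100), a call that was lost with only these groups fitted (adjusted p = 0.0517). Smarca2, the alternative ATPase BRM, stood at 144, 168 and 133 CPM in NOTCHWT_TCFWT, 165, 112 and 145 CPM in NICD_TCFKO, 205, 181 and 191 CPM in NICD_TCFWT and 183, 163 and 226 CPM in NOTCHWT_TCFKO. NICD_TCFWT lay above NOTCHWT_TCFWT and NICD_TCFKO without overlap, yet no pairwise comparison passed, while the interaction was -0.81 ± 0.22 (edgeR, adjusted p = 0.0181, lost with the sex-linked covariate, 0.0847). The interaction of Smarca4 was 0.35 ± 0.10 (edgeR, adjusted p = 0.0262), and it was lost in 5 of 20 alternatives (adjusted p up to 0.0616), among them those without library 3 of NOTCHWT_TCFWT or NICD_TCFWT or library 1 of NOTCHWT_TCFKO.

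Smarcd2, a subunit known for its role in granulocyte maturation, was at 212, 202 and 215 CPM in NOTCHWT_TCFWT, 232, 292 and 259 CPM in NICD_TCFKO, 212, 221 and 215 CPM in NICD_TCFWT and 205, 203 and 226 CPM in NOTCHWT_TCFKO. Every library of NICD_TCFKO was above all 9 others, by 0.31 ± 0.08 against NOTCHWT_TCFKO (edgeR, adjusted p = 0.0271) and by 0.32 ± 0.08 against NOTCHWT_TCFWT (edgeR, adjusted p = 0.0465). These calls were lost in 5 and 14 of 21 alternatives (adjusted p up to 0.122 and 0.126), the first without library 2 or 3 of NICD_TCFKO or library 1 or 2 of NOTCHWT_TCFKO. The second was lost without any single library other than library 1 of NICD_TCFKO and libraries 2 and 3 of NOTCHWT_TCFKO. Pbrm1, which marks the PBAF form, stood at 223, 229 and 204 CPM in NICD_TCFWT and between 247 and 282 CPM in the 9 other libraries. It fell by 0.27 ± 0.07 in NICD_TCFWT against NOTCHWT_TCFWT (edgeR, adjusted p = 0.0207) and was higher by 0.26 ± 0.07 in NICD_TCFKO than in NICD_TCFWT (edgeR, adjusted p = 0.0349). Both were lost in some alternatives, 4 and 9 of 21 (adjusted p up to 0.0845 and 0.125), the first without library 2 or 3 of NOTCHWT_TCFWT or library 1 or 3 of NICD_TCFWT, and the second without any library of NICD_TCFWT or NICD_TCFKO or library 1 of NOTCHWT_TCFKO.

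Arid1b, Arid2, Smarcb1, Smarcc2 and Smarcd1 passed in no test. Arid1b, the paralogue that can replace Arid1a, had group means of 205 ± 13.8, 205 ± 22, 247 ± 1.02 and 227 ± 45.8 CPM in NOTCHWT_TCFWT, NICD_TCFKO, NICD_TCFWT and NOTCHWT_TCFKO (SD, n = 3). The interaction of Arid1b was -0.42 ± 0.18 on the log2 scale (edgeR, adjusted p = 0.112). Per kb of exon, Arid1a was the more abundant of the pair in each group, with means of 36.7 to 54.4 against 16.2 to 19.6 CPM per kb, and Smarca4, at 56.5 to 71.5, exceeded Smarca2, at 9.88 to 13.5 CPM per kb. The core subunit Smarcb1 ranged from 106 to 137 CPM over the libraries.

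**Figure D5:**
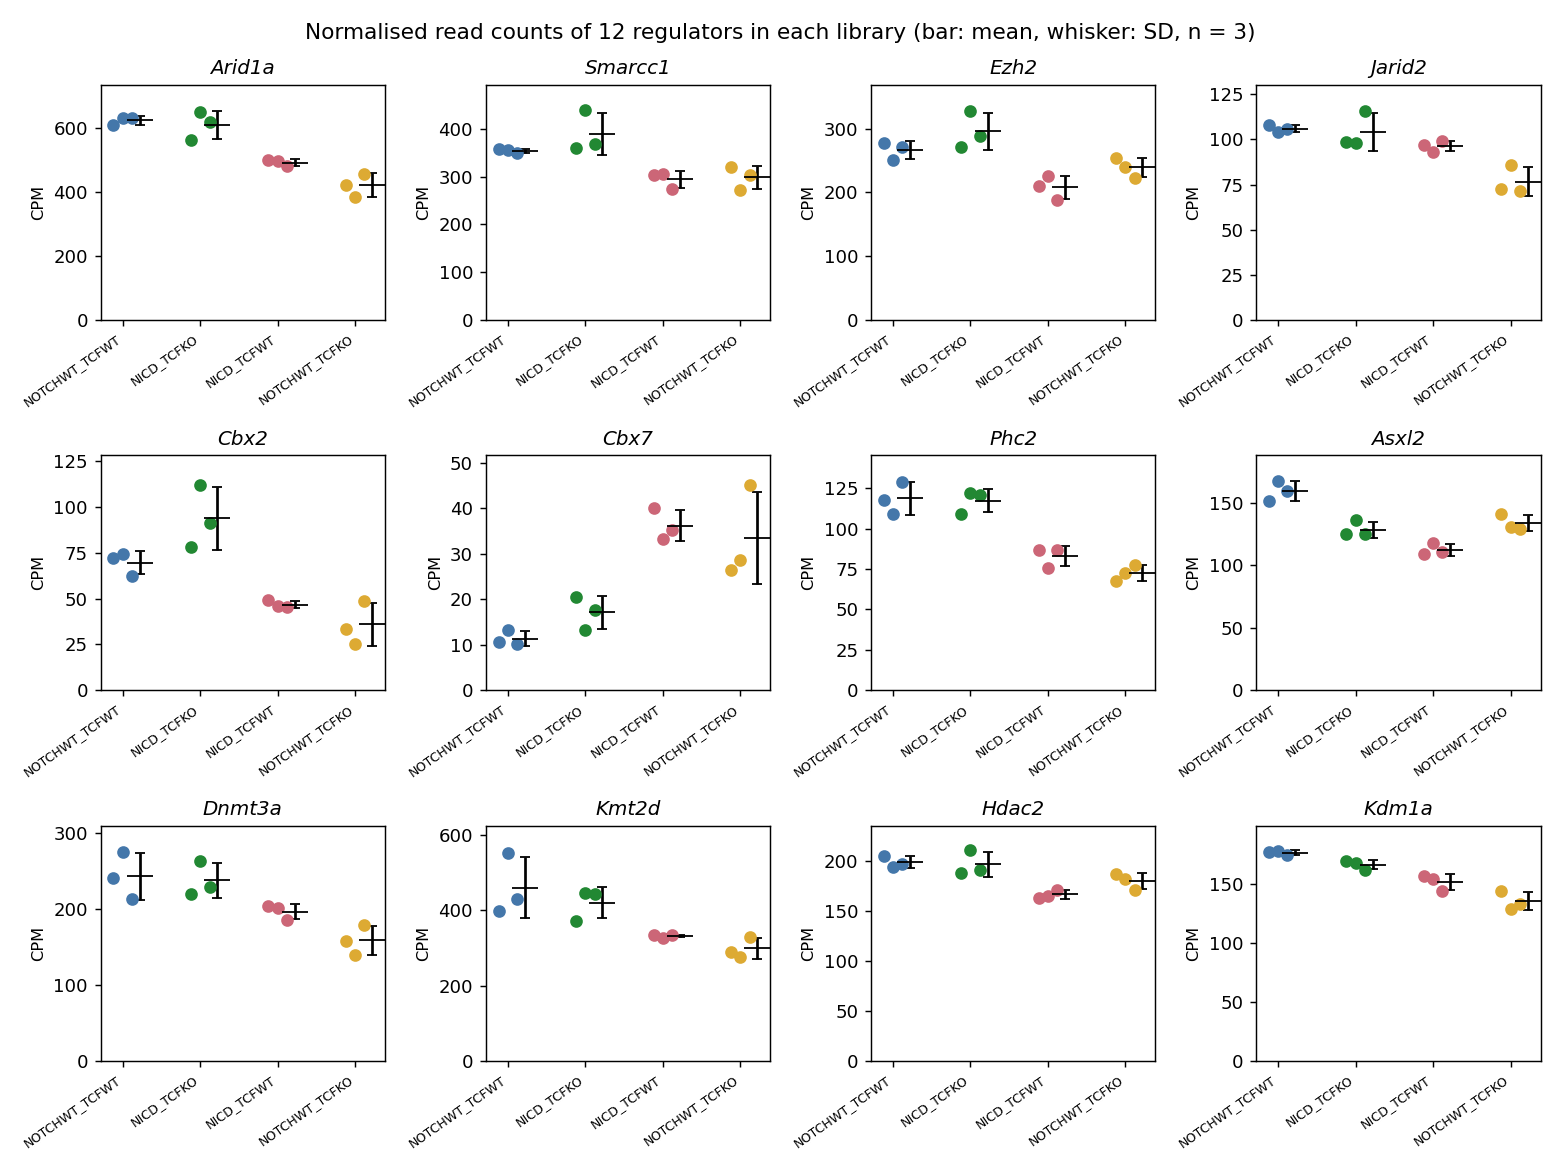
CPM of 12 regulators in each library (points) of the 4 labelled groups, with the mean and SD of each group (bar and whisker, n = 3), and each axis starting at 0. In 8 of the 12 panels all libraries labelled NOTCHWT_TCFWT or NICD_TCFKO lie above those of the other groups. These 8 are all of the 47 members that did so (17.0%, beside 5.6% of all genes tested), so the panels do not represent the 47. Cbx7 shows the opposite order, from 10.1 to 20.5 CPM against 26.5 to 45.1 CPM, and Ezh2, Jarid2 and Asxl2 overlap.

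Of PRC2, 3 of 5 subunits differed among the groups, beside 29.7% of all genes, and the call of Ezh2 held in every alternative. That of Jarid2 was lost without library 1 of NOTCHWT_TCFKO (adjusted p = 0.0535), and that of Eed in 6 of 20 alternatives (adjusted p up to 0.105), among them without library 1 of NOTCHWT_TCFWT, 1 or 3 of NICD_TCFWT, or 1 or 2 of NICD_TCFKO. Ezh2 (ENSMUSG00000029687, chromosome 6, 47530139 to 47595341, minus strand), the main histone H3 lysine 27 methyltransferase of dividing cells, stood at 278, 250 and 271 CPM in NOTCHWT_TCFWT and 271, 328 and 289 CPM in NICD_TCFKO. It was at 210, 225 and 188 CPM in NICD_TCFWT and 254, 240 and 223 CPM in NOTCHWT_TCFKO, which overlapped with NOTCHWT_TCFWT by 1 library. NICD_TCFKO was higher than NICD_TCFWT by 0.51 ± 0.09 (edgeR, adjusted p = 0.00635), and this call held in every alternative, as did the interaction of 0.67 ± 0.13. Ezh2 fell by 0.36 ± 0.09 in NICD_TCFWT against NOTCHWT_TCFWT (edgeR, adjusted p = 0.0204), a call lost without library 1 or 3 of either group and with the sex-linked covariate (adjusted p up to 0.0787). Its difference of 0.31 ± 0.09 between NICD_TCFKO and NOTCHWT_TCFKO (edgeR, adjusted p = 0.0410) was lost in 15 of 21 alternatives (adjusted p up to 0.164), among them without any single library other than library 3 of NICD_TCFWT and library 1 of NICD_TCFKO.

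Ezh1, the paralogue of Ezh2 that prevails in resting cells, was at 84.6, 89.8 and 81.6 CPM in NOTCHWT_TCFWT, 70.5, 74.0 and 92.1 CPM in NICD_TCFKO, 77.3, 75.6 and 75.9 CPM in NICD_TCFWT and 56.5, 57.5 and 74.4 CPM in NOTCHWT_TCFKO. It fell by 0.44 ± 0.12 in NOTCHWT_TCFKO against NOTCHWT_TCFWT (edgeR, adjusted p = 0.0234), a call lost without library 1 or 2 of either group and with the sex-linked covariate (adjusted p up to 0.0987). Library 3 of NOTCHWT_TCFKO, the one that stood apart, was the highest of its group. Per kb, Ezh2 exceeded Ezh1 in each group, with means of 31.1 to 44.3 against 8.44 to 11.5 CPM per kb.

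Jarid2 (ENSMUSG00000038518, chromosome 13, 44729474 to 44921643, plus strand), an accessory subunit that helps to recruit PRC2, was low in 1 group. It stood at 72.7, 85.7 and 71.3 CPM in NOTCHWT_TCFKO and between 93.3 and 116 CPM in the 9 other libraries, with no overlap. NOTCHWT_TCFKO was lower than NOTCHWT_TCFWT, with a log2 fold change of -0.47 ± 0.09 (edgeR, adjusted p = 0.00350, held in every alternative), and NICD_TCFKO was higher than NOTCHWT_TCFKO by 0.44 ± 0.09 (edgeR, adjusted p = 0.00634, lost with only these groups fitted, 0.0736). The scaffold subunit Eed was at 84.0, 88.8 and 80.6 CPM in NICD_TCFWT and 103, 106 and 96.9 CPM in NICD_TCFKO, higher by 0.27 ± 0.06 (edgeR, adjusted p = 0.0155). That call was lost without library 1 or 3 of NICD_TCFWT or library 2 of NICD_TCFKO (adjusted p up to 0.0702). Suz12, the third core subunit, passed in no test, at 240 ± 8.39, 259 ± 18.0, 212 ± 9.21 and 267 ± 38.8 CPM in NOTCHWT_TCFWT, NICD_TCFKO, NICD_TCFWT and NOTCHWT_TCFKO (SD, n = 3).

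PRC1 held the largest differences of the 47 genes. Of its 8 subunits 4 differed among the groups, beside 29.7% of all genes, and the calls of Cbx2, Cbx7 and Phc2 held in every alternative. That of Rnf2 was lost in 13 of 20 (adjusted p up to 0.0937), among them without any single library other than libraries 2 and 3 of NOTCHWT_TCFWT. Its CBX subunits read the PRC2 mark, and each complex holds 1 of them. Cbx7 is known for promoting self-renewal of haematopoietic stem cells, and Cbx2 and Cbx8 for complexes of more differentiated cells. Cbx7 (ENSMUSG00000053411, chromosome 15, 79915807 to 79971119, minus strand) stood at 10.7, 13.2 and 10.1 CPM in NOTCHWT_TCFWT and at 20.5, 13.3 and 17.7 CPM in NICD_TCFKO. It stood at 40, 33.3 and 35.1 CPM in NICD_TCFWT and at 26.5, 28.7 and 45.1 CPM in NOTCHWT_TCFKO. Each library of the second pair of groups was above each of the first, and the highest value was that of library 3 of NOTCHWT_TCFKO. Cbx7 rose by 1.67 ± 0.22 in NICD_TCFWT (edgeR, adjusted p = 0.000609) and by 1.56 ± 0.22 in NOTCHWT_TCFKO (edgeR, adjusted p = 0.000714) relative to NOTCHWT_TCFWT. NICD_TCFKO was lower than NICD_TCFWT, with a log2 fold change of -1.07 ± 0.22 (edgeR, adjusted p = 0.0103), and lower than NOTCHWT_TCFKO, with -0.96 ± 0.22 (edgeR, adjusted p = 0.0126). Of these calls only the last was lost, with only the 2 groups fitted (adjusted p = 0.0617). The gene shares 100 exon bases, 1.5% of its exon length, with Apobec3 on the opposite strand, and whether counting used strand is not given in the sources used here. Apobec3 had means of 89.1 ± 1.45, 213 ± 74.0, 185 ± 24.3 and 300 ± 20.2 CPM (SD, n = 3) in NOTCHWT_TCFWT, NICD_TCFKO, NICD_TCFWT and NOTCHWT_TCFKO. Like Cbx7, Apobec3 was higher than in NOTCHWT_TCFWT in NICD_TCFWT, by 1.05 ± 0.21 (edgeR, adjusted p = 0.00668), and in NOTCHWT_TCFKO, by 1.75 ± 0.22 (edgeR, adjusted p = 0.000367), and its interaction was -1.55 ± 0.30 (edgeR, adjusted p = 0.00364). Unlike Cbx7 it was not called between NICD_TCFKO and NICD_TCFWT (0.21 ± 0.21, edgeR, adjusted p = 0.558). Over all libraries Apobec3 had 91585 counts and Cbx7 11282. Were the counts of Apobec3 spread evenly over its exons, those in the shared bases would number 969, or 8.59% of the counts of Cbx7, and the part of shared reads in the values of Cbx7 was not tested.

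Cbx2 (ENSMUSG00000025577, chromosome 11, 119022962 to 119031270, plus strand) had the opposite order. It stood at 72.1, 74.5 and 62.4 CPM in NOTCHWT_TCFWT and 78.1, 112 and 91.2 CPM in NICD_TCFKO, against 49.2, 45.8 and 45.3 CPM in NICD_TCFWT and 33.6, 25.5 and 48.6 CPM in NOTCHWT_TCFKO. All libraries of NICD_TCFKO exceeded all others, and library 3 of NOTCHWT_TCFKO reached the level of NICD_TCFWT. NICD_TCFKO was higher by 1.01 ± 0.21 than NICD_TCFWT (edgeR, adjusted p = 0.0116) and by 1.39 ± 0.21 than NOTCHWT_TCFKO (edgeR, adjusted p = 0.00165), and NOTCHWT_TCFKO was lower than NOTCHWT_TCFWT, with a log2 fold change of -0.96 ± 0.21 (edgeR, adjusted p = 0.00815). These calls held in every alternative. Per kb of exon the group means of Cbx2 and Cbx7 were 16.4 and 1.74 CPM per kb in NOTCHWT_TCFWT, 22.1 and 2.64 in NICD_TCFKO, 11 and 5.57 in NICD_TCFWT, and 8.43 and 5.15 in NOTCHWT_TCFKO. Per kb Cbx2 was thus the more abundant of the 2 in all groups, by a smaller margin in NICD_TCFWT and NOTCHWT_TCFKO. The margin depends on their joined exon lengths, 4257 and 6487 bases. In CPM the means of Cbx2 and Cbx7 in NOTCHWT_TCFKO were 35.9 and 33.4. In library 2 of that group Cbx7 was the higher, at 28.7 against 25.5 CPM. Cbx8, whose gene lies next to Cbx2, ranged from 8.96 to 15.2 CPM and passed in no test.

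Phc2 (ENSMUSG00000028796, chromosome 4, 128654702 to 128752881, plus strand), a subunit that joins PRC1 complexes into larger assemblies, stood at 118, 109 and 129 CPM in NOTCHWT_TCFWT and 109, 122 and 121 CPM in NICD_TCFKO. It was at 86.9, 75.9 and 86.8 CPM in NICD_TCFWT and 67.7, 72.8 and 77.2 CPM in NOTCHWT_TCFKO. The 2 pairs of groups were far apart relative to the spread within each. Against NOTCHWT_TCFWT it fell by 0.51 ± 0.09 in NICD_TCFWT (edgeR, adjusted p = 0.00255) and by 0.71 ± 0.09 in NOTCHWT_TCFKO (edgeR, adjusted p = 0.000320). NICD_TCFKO was higher than these groups by 0.50 ± 0.09 (edgeR, adjusted p = 0.00526) and 0.69 ± 0.09 (edgeR, adjusted p = 0.000500). All of these calls held in every alternative. Its paralogue Phc1 passed in no test, at 80.1 ± 2.70, 72.6 ± 10.3, 85.8 ± 7.39 and 68.5 ± 11.7 CPM in NOTCHWT_TCFWT, NICD_TCFKO, NICD_TCFWT and NOTCHWT_TCFKO (SD, n = 3).

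The catalytic and core subunits of PRC1 moved less. Rnf2, the main ubiquitin ligase of PRC1, was at 113, 124 and 105 CPM in NOTCHWT_TCFWT, 110, 115 and 120 CPM in NICD_TCFKO, 99.2, 96.3 and 92.2 CPM in NICD_TCFWT and 106, 101 and 103 CPM in NOTCHWT_TCFKO. NICD_TCFWT lay below all other libraries, by -0.25 ± 0.07 against NOTCHWT_TCFWT (edgeR, adjusted p = 0.0290), and NICD_TCFKO was 0.26 ± 0.07 higher than NICD_TCFWT (edgeR, adjusted p = 0.0324), calls that were each lost in 9 of 21 alternatives (adjusted p up to 0.119 and 0.0941). Both were lost without library 1 of NOTCHWT_TCFWT or NOTCHWT_TCFKO or any library of NICD_TCFWT, the first also without library 2 of NOTCHWT_TCFWT and the second without library 2 or 3 of NICD_TCFKO. Bmi1, a partner of Rnf2 required by haematopoietic stem cells, was at 92.1, 92.4 and 94.8 CPM in NICD_TCFWT and 103, 118 and 110 CPM in NICD_TCFKO, higher by 0.25 ± 0.07 (edgeR, adjusted p = 0.0395), which was lost in 12 of 21 alternatives (adjusted p up to 0.153), among them those without the libraries named for the second call of Rnf2. Ring1, the paralogue of Rnf2, ranged from 25.8 to 37.4 CPM and passed in no test, with an interaction of -0.40 ± 0.17 (edgeR, adjusted p = 0.103). Per kb, Rnf2 exceeded Ring1, with group means of 23.2 to 27.9 against 8.38 to 9.67 CPM per kb.

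Sequences before the transcription start were taken from RefSeq (GRCm38.p6), which held 49 starts for 40 of the 47 genes. In the 250 bases before each start, both strands were searched for TGGGAA, the core of the site bound by RBPJ, the DNA-binding partner of N1IC, and for CTTTGA and CTTTGT, the cores of sites bound by TCF proteins such as the product of Tcf7. CTTTGA and CTTTGT differ in their last letter, so that no position of a strand matches both. TGGGAA was in 14.3% of the members' starts against 21.6% of all 32851 starts, CTTTGA in 10.2% against 13.8%, and CTTTGT in 10.2% against 16.5%. These windows held a median of 23 CG dinucleotides, against 6 over all starts. The window of Cbx7 is shown because that gene had the largest change and it held none of the 3 motifs. Its window lies inside the span that the annotation gives the gene. The windows of Phc2, Kmt2d, Ezh2 and Jarid2 are shown as examples of called members with a match, chosen after the matches were known, with the matches on either strand in capitals. Each is printed 5′ to 3′ on the strand of the gene. Phc2 and Jarid2 had further starts with no match. A match is a stretch of letters and not a measured binding site.
Cbx7 (chr15:79932647-79932896, - strand): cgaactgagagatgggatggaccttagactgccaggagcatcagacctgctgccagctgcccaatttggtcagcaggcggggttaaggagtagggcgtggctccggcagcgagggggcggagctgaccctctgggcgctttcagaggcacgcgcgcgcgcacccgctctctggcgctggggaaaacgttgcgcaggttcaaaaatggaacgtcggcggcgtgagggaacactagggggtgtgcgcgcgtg
Phc2 (chr4:128727321-128727570, + strand): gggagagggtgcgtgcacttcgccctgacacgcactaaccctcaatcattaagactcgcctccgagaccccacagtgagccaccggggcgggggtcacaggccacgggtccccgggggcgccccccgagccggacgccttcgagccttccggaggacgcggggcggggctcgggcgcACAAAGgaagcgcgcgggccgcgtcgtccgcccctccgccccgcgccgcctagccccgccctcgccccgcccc
Kmt2d (chr15:98871206-98871455, - strand): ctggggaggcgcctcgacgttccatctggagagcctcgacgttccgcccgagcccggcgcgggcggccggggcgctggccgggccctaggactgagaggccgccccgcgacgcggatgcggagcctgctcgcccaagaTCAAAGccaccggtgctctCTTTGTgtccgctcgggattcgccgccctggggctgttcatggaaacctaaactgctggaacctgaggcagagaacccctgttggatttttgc
Ezh2 (chr6:47595031-47595280, - strand): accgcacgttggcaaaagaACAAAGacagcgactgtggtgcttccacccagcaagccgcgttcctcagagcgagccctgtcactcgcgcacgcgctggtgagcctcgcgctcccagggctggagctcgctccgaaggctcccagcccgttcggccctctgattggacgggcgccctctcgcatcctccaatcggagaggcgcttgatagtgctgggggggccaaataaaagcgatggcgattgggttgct
Jarid2 (chr13:44730524-44730773, + strand): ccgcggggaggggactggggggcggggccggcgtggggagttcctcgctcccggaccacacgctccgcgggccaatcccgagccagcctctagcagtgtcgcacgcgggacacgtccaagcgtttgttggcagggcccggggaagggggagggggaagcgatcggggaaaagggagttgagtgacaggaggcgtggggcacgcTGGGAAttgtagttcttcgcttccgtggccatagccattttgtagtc

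ASXL proteins work with the deubiquitinase BAP1, which removes the mark that PRC1 writes. Asxl2 (ENSMUSG00000037486, chromosome 12, 3426857 to 3506852, plus strand) was highest in 1 group. It stood at 152, 168 and 160 CPM in NOTCHWT_TCFWT, 125, 136 and 125 CPM in NICD_TCFKO, 109, 118 and 111 CPM in NICD_TCFWT and 141, 131 and 129 CPM in NOTCHWT_TCFKO. NOTCHWT_TCFWT did not overlap with any other group, nor did NICD_TCFWT, the lowest. It fell by 0.50 ± 0.07 in NICD_TCFWT (edgeR, adjusted p = 0.000563, held in every alternative), by 0.26 ± 0.07 in NOTCHWT_TCFKO (edgeR, adjusted p = 0.0163) and by 0.32 ± 0.07 in NICD_TCFKO (edgeR, adjusted p = 0.0188). The last 2 calls were lost in 4 and 5 of 21 alternatives (adjusted p up to 0.0876 and 0.0702), among them those without library 2 of NOTCHWT_TCFWT, library 2 or 3 of NOTCHWT_TCFKO, or library 1 or 3 of NICD_TCFKO. Asxl1, the member of the pair most often mutated in myeloid disease, ranged from 204 to 227 CPM and passed in no test. Per kb it was higher than Asxl2 in every group, with means of 28.2 to 29.7 against 7.08 to 10 CPM per kb.

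Among the 6 enzymes of DNA methylation, 1 (16.7%) differed among the groups, beside 29.7% of all genes. Dnmt3a (ENSMUSG00000020661, chromosome 12, 3806007 to 3914443, plus strand), a de novo methyltransferase that limits stem cell self-renewal, stood at 241, 275 and 214 CPM in NOTCHWT_TCFWT and 220, 264 and 230 CPM in NICD_TCFKO. It was at 204, 201 and 186 CPM in NICD_TCFWT and 158, 140 and 179 CPM in NOTCHWT_TCFKO. NOTCHWT_TCFKO was lowest without overlap, and NICD_TCFWT lay between it and the other 2 groups. It fell by 0.62 ± 0.11 in NOTCHWT_TCFKO against NOTCHWT_TCFWT (edgeR, adjusted p = 0.00369) and was higher by 0.58 ± 0.11 in NICD_TCFKO than in NOTCHWT_TCFKO (edgeR, adjusted p = 0.00644), calls that held in every alternative.

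Dnmt3b, the other de novo enzyme, passed in no test, and its libraries were the most variable of the group. It stood at 174, 165 and 126 CPM in NOTCHWT_TCFWT, 207, 190 and 161 CPM in NICD_TCFKO, 243, 221 and 134 CPM in NICD_TCFWT and 119, 75.9 and 138 CPM in NOTCHWT_TCFKO, with overlap in most pairs. The maintenance enzyme Dnmt1 ranged from 572 to 708 CPM with no call. Per kb, Dnmt1 was the most abundant of the 3, with group means of 82.6 to 90.9 CPM per kb, followed by Dnmt3b at 21.7 to 39.0 and Dnmt3a at 9.54 to 14.6. In CPM the mean over all libraries was higher for Dnmt3a, at 209, than for Dnmt3b, at 163. The order of these genes per kb thus rests on their joined exon lengths, 16642 and 5106 bases.

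The TET enzymes, which start the removal of cytosine methylation, differed little. Tet3 had means of 176 ± 8.5, 172 ± 18.3, 149 ± 5.54 and 152 ± 7.12 CPM in NOTCHWT_TCFWT, NICD_TCFKO, NICD_TCFWT and NOTCHWT_TCFKO (SD, n = 3). Its interaction of 0.42 ± 0.12 passed (edgeR, adjusted p = 0.0198), was lost without library 1 of NICD_TCFWT and with the sex-linked covariate (adjusted p up to 0.0914), and no pairwise comparison of it passed. Tet1, from 49.4 to 101 CPM, and Tet2, from 37.0 to 56.0 CPM, passed in no test. Tet2 was the least abundant of the 47 genes per kb of exon, at a mean of 2.77 CPM per kb over all libraries, against 105 for Chd4, the most abundant, and a median of 18.9.

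Of the histone methylation enzymes, 3 of 8 differed among the groups, Kmt2d, Kdm6b and Dot1l, beside 29.7% of all genes. Only the call of Kmt2d held in every alternative. That of Kdm6b was lost in 11 of 20 (adjusted p up to 0.116), among them without any single library of NICD_TCFKO or NOTCHWT_TCFKO, library 1 of NOTCHWT_TCFWT or library 1 or 2 of NICD_TCFWT. That of Dot1l was lost in 5 of 20 (adjusted p up to 0.0780), with the sex-linked covariate and without library 2 of NOTCHWT_TCFWT, library 1 of NICD_TCFWT or library 1 or 3 of NOTCHWT_TCFKO. Kmt2d (ENSMUSG00000048154, chromosome 15, 98831669 to 98871204, minus strand), a histone H3 lysine 4 methyltransferase of enhancers, stood at 398, 553 and 429 CPM in NOTCHWT_TCFWT and 372, 445 and 444 CPM in NICD_TCFKO. It was at 333, 327 and 333 CPM in NICD_TCFWT and 290, 276 and 330 CPM in NOTCHWT_TCFKO. The 2 pairs of groups did not overlap, and library 2 of NOTCHWT_TCFWT was the highest of all. It fell by 0.62 ± 0.12 in NOTCHWT_TCFKO against NOTCHWT_TCFWT (edgeR, adjusted p = 0.00502, held in every alternative) and by 0.48 ± 0.12 in NICD_TCFWT (edgeR, adjusted p = 0.0198). NICD_TCFKO was higher than NOTCHWT_TCFKO by 0.49 ± 0.12 (edgeR, adjusted p = 0.0195). The second call was lost without library 2 of NOTCHWT_TCFWT or library 1 or 2 of NICD_TCFWT and with the sex-linked covariate, and the third without library 2 or 3 of NICD_TCFKO or library 1 or 2 of NOTCHWT_TCFKO (adjusted p up to 0.0648 and 0.0733).

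Kmt2c, the paralogue of Kmt2d, was at 236, 315 and 265 CPM in NOTCHWT_TCFWT and 185, 202 and 211 CPM in NICD_TCFWT, with NICD_TCFKO at 206, 224 and 236 CPM and NOTCHWT_TCFKO at 203, 217 and 253 CPM between them in mean. It fell by 0.45 ± 0.12 in NICD_TCFWT against NOTCHWT_TCFWT (edgeR, adjusted p = 0.0200), a call lost without library 2 of NOTCHWT_TCFWT or library 1 of NICD_TCFWT and with the sex-linked covariate (adjusted p up to 0.0870). Kmt2a, the MLL methyltransferase, and Kmt2b passed in no test. Kmt2a was at 368, 314 and 462 CPM in NOTCHWT_TCFKO, where library 3 again stood apart, and between 423 and 567 CPM elsewhere.

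Kdm6b, a demethylase that removes the PRC2 mark, was at 71.8, 103 and 69.2 CPM in NOTCHWT_TCFWT, 85.4, 77.8 and 94.5 CPM in NICD_TCFKO, 82.8, 74.4 and 64.3 CPM in NICD_TCFWT and 60, 55.4 and 56.8 CPM in NOTCHWT_TCFKO, the lowest without overlap. NOTCHWT_TCFKO was lower than NOTCHWT_TCFWT, with -0.50 ± 0.15 (edgeR, adjusted p = 0.0338), and NICD_TCFKO higher than NOTCHWT_TCFKO by 0.58 ± 0.15 (edgeR, adjusted p = 0.0213), calls lost in 8 and 4 of 21 alternatives (adjusted p up to 0.132 and 0.0702), the second without library 3 of NICD_TCFKO or any single library of NOTCHWT_TCFKO. The first was lost without library 2 of NOTCHWT_TCFWT, library 1 of NICD_TCFWT or NICD_TCFKO, or any library of NOTCHWT_TCFKO. Dot1l, the histone H3 lysine 79 methyltransferase, showed the same lowest group, at 136, 141 and 137 CPM against 144 to 180 CPM elsewhere. It fell by 0.31 ± 0.07 in NOTCHWT_TCFKO against NOTCHWT_TCFWT (edgeR, adjusted p = 0.00779, held in every alternative) and was higher by 0.27 ± 0.07 in NICD_TCFKO than in NOTCHWT_TCFKO (edgeR, adjusted p = 0.0219, lost in 5 of 21 alternatives, up to 0.0808, among them without library 2 or 3 of NICD_TCFKO or library 1 or 3 of NOTCHWT_TCFKO). Setd2, the histone H3 lysine 36 methyltransferase, was at 217, 229 and 229 CPM in NICD_TCFWT against 231 to 276 CPM elsewhere. Its differences of -0.22 ± 0.07 from NOTCHWT_TCFWT (edgeR, adjusted p = 0.0499) and 0.26 ± 0.07 in NICD_TCFKO relative to NICD_TCFWT (edgeR, adjusted p = 0.0388) were lost in 16 and 9 of 21 alternatives (adjusted p up to 0.185 and 0.142). Both were lost without any library of NICD_TCFWT, library 3 of NICD_TCFKO or library 1 of NOTCHWT_TCFKO, the first also without library 2 or 3 of NOTCHWT_TCFWT, library 1 of NICD_TCFKO or library 3 of NOTCHWT_TCFKO, and the second without library 2 of NICD_TCFKO. Nsd1 ranged from 272 to 339 CPM and passed in no test.

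The acetyltransferases Ep300 and Crebbp, paralogues that serve as coactivators, did not differ among the groups. Ep300 had the smallest ratio of group means of the 47, with 191 ± 16.4, 192 ± 11.5, 188 ± 4.61 and 191 ± 2.62 CPM in NOTCHWT_TCFWT, NICD_TCFKO, NICD_TCFWT and NOTCHWT_TCFKO (SD, n = 3). Crebbp stood at 72.1, 93.6 and 79.2 CPM in NOTCHWT_TCFWT and 64.0, 63.0 and 69.4 CPM in NOTCHWT_TCFKO, lower by -0.32 ± 0.09 on the log2 scale (edgeR, adjusted p = 0.0326), which was lost in 8 of 21 alternatives (adjusted p up to 0.132), among them without library 2 or 3 of NOTCHWT_TCFWT, library 1 or 2 of NOTCHWT_TCFKO, or library 1 of NICD_TCFWT or NICD_TCFKO.

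Of the deacetylase group, 2 of 5 differed among the groups, beside 29.7% of all genes, and of the 2 Hdac2 lost that call in 9 of 20 alternatives (adjusted p up to 0.118), among them without any single library of NOTCHWT_TCFWT or NICD_TCFWT. Kdm1a (ENSMUSG00000036940, chromosome 4, 136550540 to 136602723, minus strand), the lysine 4 demethylase of the CoREST complex, stood at 177, 178 and 174 CPM in NOTCHWT_TCFWT and 169, 168 and 162 CPM in NICD_TCFKO. It was at 157, 154 and 144 CPM in NICD_TCFWT and 144, 129 and 133 CPM in NOTCHWT_TCFKO. The spread within each group was small, and the 2 pairs of groups did not overlap. Kdm1a fell by 0.39 ± 0.06 in NOTCHWT_TCFKO (edgeR, adjusted p = 0.00139, held in every alternative) and by 0.22 ± 0.06 in NICD_TCFWT (edgeR, adjusted p = 0.0263) against NOTCHWT_TCFWT. It was higher by 0.30 ± 0.06 in NICD_TCFKO than in NOTCHWT_TCFKO (edgeR, adjusted p = 0.00743, lost with only these groups fitted, 0.0594). The call in NICD_TCFWT was lost in 6 of 21 alternatives (adjusted p up to 0.0819), among them without library 1 or 2 of NOTCHWT_TCFWT or any single library of NICD_TCFWT.

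Hdac2 (ENSMUSG00000019777, chromosome 10, 36974544 to 37001889, plus strand), a class I deacetylase, stood at 205, 194 and 197 CPM in NOTCHWT_TCFWT, 188, 211 and 191 CPM in NICD_TCFKO, 163, 165 and 171 CPM in NICD_TCFWT and 187, 182 and 171 CPM in NOTCHWT_TCFKO. The groups did not overlap between the first pair and the second, although library 1 of NOTCHWT_TCFKO came within 1 CPM of the lowest of NICD_TCFKO. It fell by 0.26 ± 0.06 in NICD_TCFWT against NOTCHWT_TCFWT (edgeR, adjusted p = 0.0160) and was higher by 0.25 ± 0.06 in NICD_TCFKO than in NICD_TCFWT (edgeR, adjusted p = 0.0296). These calls were lost in 4 and 10 of 21 alternatives (adjusted p up to 0.0797 and 0.128), the first without library 1 of NOTCHWT_TCFWT or library 1 or 2 of NICD_TCFWT and with the sex-linked covariate. The second was lost without library 1 of NOTCHWT_TCFWT, any library of NICD_TCFWT or library 2 or 3 of NICD_TCFKO. Its paralogue Hdac1, from 114 to 210 CPM, Hdac3, from 97.6 to 121 CPM, and Chd4, the ATPase of the NuRD complex, from 746 to 981 CPM, passed in no test.

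In all, 24 members (51.1%) passed in a pairwise comparison or among the groups, beside 37.9% of all genes tested and 39.9% of those in the members' CPM range. With Smarca2 and Tet3, which passed only for the interaction, the share was 55.3%, beside 40.2% of all genes and 42.4% of those in the CPM range. The other 21 passed in no test. Of the 47 genes 17 share exon bases with another gene, at most 7.1% of the exon length (Smarcd1). Under the same even spread, counts of the overlapping gene within shared bases came to at most 1.08% of a member's counts (Rnf2) apart from Cbx7.

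Of 108 other genes of the same complexes and enzyme families, 107 could be tested, and Asxl3 could not, at no more than 0.145 CPM in any library. Of the 107, 33 (30.8%) differed among the groups, near the 29.7% of all genes tested. Higher and lower calls were 5 and 18 (4.67 and 16.8%) in NICD_TCFWT against NOTCHWT_TCFWT, beside 10.6 and 9.75% of all genes tested. In NOTCHWT_TCFKO against NOTCHWT_TCFWT they were 4 and 18 (3.74 and 16.8%), beside 10.8 and 10.5%. NICD_TCFKO had 12 and 4 against NICD_TCFWT (11.2 and 3.74%, beside 7.25 and 5.15%). Against NOTCHWT_TCFKO it had 25 and 5 (23.4 and 4.67%, beside 10.3 and 8.06%). Against NOTCHWT_TCFWT it had 2 and 2 (1.87% each, beside 4.01 and 2.3%). In NOTCHWT_TCFKO against NICD_TCFWT 0 were higher and 1 was lower, Kat2a (0.935%, beside 1.54%). For the interaction 29 were positive and 7 negative (27.1 and 6.54%), beside 13.8 and 13.5% of all genes tested. The genes named next, save those said to be otherwise, had the smallest p among the groups in their family.

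Mbd4, a thymine glycosylase that binds methylated DNA, had means of 71.8 ± 5.28, 67.1 ± 7.17, 49.3 ± 0.988 and 43.5 ± 1.12 CPM in NOTCHWT_TCFWT, NICD_TCFKO, NICD_TCFWT and NOTCHWT_TCFKO (SD, n = 3). It fell by 0.54 ± 0.08 in NICD_TCFWT (edgeR, adjusted p = 0.00148) and by 0.72 ± 0.08 in NOTCHWT_TCFKO (edgeR, adjusted p = 0.000226) against NOTCHWT_TCFWT, and its calls held in every alternative. Hdac9, a class IIa deacetylase, went the other way, with 6.01 ± 0.376, 7.22 ± 0.973, 19.8 ± 4.37 and 15.7 ± 1.61 CPM in the same order. It rose by 1.72 ± 0.18 in NICD_TCFWT (edgeR, adjusted p = 0.000132) and by 1.38 ± 0.17 in NOTCHWT_TCFKO (edgeR, adjusted p = 0.000353), and these calls held likewise. Hdac9 therefore had the order of groups seen for Cbx7, and Mbd4 that of Phc2.

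Setdb1, a histone H3 lysine 9 methyltransferase, fell by 0.39 ± 0.06 in NICD_TCFWT (edgeR, adjusted p = 0.00238) and by 0.41 ± 0.06 in NOTCHWT_TCFKO (edgeR, adjusted p = 0.00145) against NOTCHWT_TCFWT. The acetyltransferase Kat2b fell by 0.59 ± 0.09 in NICD_TCFWT (edgeR, adjusted p = 0.00121). Bcl11a, a SWI/SNF-associated factor of lymphoid progenitors, had means of 314 ± 6.63, 236 ± 19.8, 198 ± 21.3 and 189 ± 16.8 CPM in the order of groups above. It fell by 0.66 ± 0.10 in NICD_TCFWT (edgeR, adjusted p = 0.00104) and by 0.73 ± 0.10 in NOTCHWT_TCFKO (edgeR, adjusted p = 0.000494). Dpf2, another BAF subunit, fell by 0.30 ± 0.05 (edgeR, adjusted p = 0.00369) and 0.49 ± 0.06 (edgeR, adjusted p = 0.000182) in the same groups, and Aebp2, a cofactor of PRC2, by 0.34 ± 0.06 in NICD_TCFWT (edgeR, adjusted p = 0.00431). These calls held in every alternative.

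Uhrf1, which brings Dnmt1 to replicating DNA, was highest in NICD_TCFKO, with means of 329 ± 25.4, 461 ± 52.1, 334 ± 27.3 and 309 ± 23.8 CPM in the order above. It was higher there than in NOTCHWT_TCFKO by 0.58 ± 0.10 (edgeR, adjusted p = 0.00370), a call held in every alternative. Gfi1, a repressor that recruits Kdm1a, was low in NOTCHWT_TCFWT alone, with 25.3 ± 6.43 against 61.2 ± 16.5, 54.6 ± 2.66 and 58.6 ± 5.86 CPM. It rose by 1.11 ± 0.22 in NICD_TCFWT (edgeR, adjusted p = 0.00563) and by 1.21 ± 0.22 in NOTCHWT_TCFKO (edgeR, adjusted p = 0.00338), which held in every alternative. Kat2a was lowest in NOTCHWT_TCFKO, at 146 ± 13.7 CPM against means of 187 to 202 CPM, and its call against NICD_TCFWT (-0.36 ± 0.08, edgeR, adjusted p = 0.0422) was lost in 12 of 21 alternatives (up to 0.159), among them without any library of NOTCHWT_TCFWT or NICD_TCFWT, library 1 of NICD_TCFKO or library 1 or 2 of NOTCHWT_TCFKO. Kdm2a, Mtf2 and Pcgf3 differed among the groups as well, with means of the 4 groups between 223 and 279 CPM for Kdm2a, 227 and 284 CPM for Mtf2 and 64.2 and 77.8 CPM for Pcgf3.

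Genes that went against the direction of most were few, and those outside the rule above were named after their values were seen. Higher in NICD_TCFWT than in NOTCHWT_TCFWT were Phf19, Hdac5, Hdac9, Hdac11 and Gfi1, and higher in NOTCHWT_TCFKO were Idh1, Hdac9, Hdac11 and Gfi1. Lower in NICD_TCFKO than in NICD_TCFWT were Bicral, Hdac5, Hdac9 and Hdac10, and lower than in NOTCHWT_TCFKO were Bicral, Yaf2, Idh1, Rcor3 and Hdac9. Hdac5, also of class IIa, had means of 48.8 ± 4.94, 49.7 ± 10.2, 83.9 ± 9.72 and 64.9 ± 5.54 CPM in NOTCHWT_TCFWT, NICD_TCFKO, NICD_TCFWT and NOTCHWT_TCFKO (SD, n = 3), and rose by 0.78 ± 0.15 in NICD_TCFWT against NOTCHWT_TCFWT (edgeR, adjusted p = 0.00451, held in every alternative).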

How the data were processed

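RNA of 12 libraries was read as single ends on a NextSeq 500, per the labels' protocols. The authors deposited raw read counts per gene, whole numbers that were not normalised. The submitters' processing notes name the mouse build mm10, HISAT2, limma, edgeR 3.28.0, cutadapt 1.9.1, bcl2fastq 2.17 and featureCounts 1.4.4. The notes as used here do not give the role of each tool, and the annotation and the strand setting of counting are not given in the sources used here. The 12 deposited files of single samples held the same counts as the table of all samples.

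Counts were scaled by TMM and filtered by expression within groups, which left 16024 genes, and these held no less than 99.92% of any library. One model with a mean per labelled group was fitted to all 12 libraries with edgeR 4.0.16 in R 4.3.3 (quasi-likelihood F test, robust), and p-values were adjusted over all genes tested by Benjamini-Hochberg at 0.05. Errors of log2 fold changes are standard errors from this fit. Exon lengths and positions came from the reference annotation of mm10. The length of a gene is that of all its annotated exons joined, over all transcripts, and can exceed that of the transcripts present. Members with an adjusted p under 0.05 in a pairwise comparison or among the groups are given by library, and of the other genes of each complex the 2 with the smallest p among the groups. Not every gene that this rule names is reported here. The members and gene lists were chosen with earlier results of these data known. The fit was tested on simulated counts. Alternatives were DESeq2 1.42.0, limma-voom (limma 3.58.1), RLE size factors, no filter, a filter at 1 CPM in 3 samples, covariates for replicate number, for Y-linked transcripts over 10 CPM (the sex-linked covariate) and for repeated sample sheet numbers in the titles (the sheet covariate), only the groups compared, and each library left out. Between libraries of 1 group, Pearson's r over genes was 0.943 to 0.985.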

Additional observations from a re-analysis of the deposited data

Results flagged for a closer look

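The effect of the Tcf7 label differed between libraries with and without the N1IC label for 21 of the 47 regulators, by the interaction term of the fit (edgeR's quasi-likelihood test, adjusted p under 0.05). Of all genes tested 27.4% passed the same test. The interaction is given on the log2 scale as the difference between the Tcf7 labels with N1IC minus that without. In PRC1 it was -2.64 for Cbx7, 1.96 for Cbx2, 1.21 for Phc2, 0.41 for Rnf2 and 0.30 for Bmi1. In SWI/SNF it was 0.88 for Arid1a, 0.65 for Smarcc1, 0.35 for Smarca4 and -0.81 for Smarca2. In PRC2 it was 0.67 for Ezh2, 0.58 for Jarid2 and 0.32 for Eed. Asxl2 had 0.45, Dnmt3a 0.89 and Tet3 0.42. Among enzymes of histone methylation Kmt2d had 0.97, Kdm6b 0.72, Dot1l 0.43 and Setd2 0.36, and in the deacetylase group Kdm1a had 0.52 and Hdac2 0.39. For 13 of the 21 the call held in every alternative. It was lost for Bmi1 in 14 of 20 (adjusted p up to 0.149), among them without any single library other than library 3 of NOTCHWT_TCFWT and library 1 of NICD_TCFKO. It was lost for Smarca4 in 5 (up to 0.0616) and for Kdm6b in 4 (up to 0.0581), the latter without library 3 of NICD_TCFWT or NICD_TCFKO or library 1 or 3 of NOTCHWT_TCFKO. Eed lost it in 3 (up to 0.0648), without library 1 or 2 of NOTCHWT_TCFWT or library 1 of NICD_TCFWT. Setd2 lost it in 3 (up to 0.0701), with the sex-linked covariate and without library 2 of NOTCHWT_TCFWT or library 1 of NICD_TCFWT. Tet3 lost it in 2 (up to 0.0914), and Smarca2 (0.0847) and Hdac2 (0.0505) with the sex-linked covariate.

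The granulocyte and monocyte, T lineage and LSK marker sums moved with the same split of the groups, as did the Notch targets Dtx1 and Hes1. The part of these genes in the values was not tested. The libraries labelled NICD_TCFKO, which should lack Tcf7, held the highest Tcf7 level, so that the interaction is one of labels. It sets the groups with high Dtx1 and Hes1 against those with low levels. It is not shown to measure how N1IC and loss of Tcf7 act together.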

How the results depend on the processing

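No named call reversed. Of 93 calls of members, 44 held in every alternative and 54 in all but those that left out a library. Counts of members called ranged, over the omissions of 1 library, from 12 to 22 among the 4 groups, 4 to 14 for NICD_TCFWT against NOTCHWT_TCFWT, 9 to 14 for NOTCHWT_TCFKO against NOTCHWT_TCFWT, 4 to 14 for NICD_TCFKO against NICD_TCFWT, 9 to 16 for NICD_TCFKO against NOTCHWT_TCFKO, 0 to 2 for NICD_TCFKO against NOTCHWT_TCFWT, 0 to 8 for NOTCHWT_TCFKO against NICD_TCFWT and 17 to 24 for the interaction. The share of all genes called moved over the same omissions as well, from 20.6 to 36.3% among the 4 groups. In the same order of pairs it ran from 12.3 to 22.1, 13.3 to 23.4, 5.57 to 16.3, 9.77 to 20, 2.23 to 7.78 and 0.976 to 12.5%. For the interaction it ran from 21.5 to 28.2%. NICD_TCFWT against NOTCHWT_TCFWT gave 12 calls and 6 with the sex-linked covariate, beside 20.4 and 15.3% of all genes. NICD_TCFKO against NOTCHWT_TCFKO gave 14 and, with only the groups compared, 6, beside 18.4 and 8.04%. NICD_TCFKO against NICD_TCFWT gave 12 and 7 without a filter, beside 12.4 and 6.91%. NICD_TCFKO against NOTCHWT_TCFWT gave 2, beside 6.3%. It gave 1 without a filter, in limma-voom or with the sheet covariate, beside 3.67, 5.4 and 6.17%, and 0 with only the groups compared, beside 3.55%. NOTCHWT_TCFKO against NICD_TCFWT gave 0, beside 2.87% of all genes. It gave 1 with RLE size factors, the 1 CPM filter or the sheet covariate, beside 2.97, 3.45 and 3%. With the sex-linked covariate it gave 3, beside 5%, and in DESeq2 6, beside 10.4%. The cause of these changes was not tested.

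Taken over all groups, the replicate numbers did not show a pairing of the samples. Of 18 pairs of libraries with the same number, 6 had deviations from their group means that correlated above 0.1 (range -0.404 to 0.451), and 3 of 12 libraries correlated best with their own number. Between NICD_TCFWT and NICD_TCFKO the pairs with the same number correlated at 0.314, 0.1 and 0.451, and the other pairs at -0.441 to 0.253. Whether the samples of these groups were paired is not known. With the replicate block 15 members differed among the groups and 10, 12, 7, 14, 1 and 0 were called in the pairwise comparisons, in the order above, beside 23 for the interaction. Of all genes 23.6% differed among the groups in that setting. In the pairs 17.2, 18.1, 9.68, 14.6, 4.59 and 1.82% were called, and for the interaction 24.7%.

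With 3 libraries per group and a common biological coefficient of variation of 0.3, the number of libraries limits the precision, each member stood at 8.96 CPM or more in every library, and a member without a call is not shown to be unchanged.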
